A study of Mus musculus with 18 samples.

Results

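Transcripts of 6 Krüppel-like factors (KLF), Klf2, Klf4, Klf5, Klf6, Klf9 and Klf10, were followed across 18 RNA sequencing libraries of MOVAS cells, a mouse aortic smooth muscle line immortalized with a viral T antigen. They were taken by gene name from a table of 21959 genes, and all 6 were among the 13375 genes with enough reads to be tested. There were 6 groups of 3 libraries: Blank, without treatment; H2O2, given hydrogen peroxide; Dox, given doxorubicin, a DNA-damaging anthracycline; and B_I, H_I and D_I, which the labels describe only as given isoliensinine, a plant alkaloid. From the first letters of the titles, the untreated, peroxide and doxorubicin groups were each taken as the reference of the matching isoliensinine group. The series' text names doxorubicin and hydrogen peroxide as inducers of senescence and calls the replicates biological; doses, times and passages are not stated there. All groups share the same line, so none represents primary cells or the vessel wall. Libraries are named below by their group and the replicate number in the title.

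KLF proteins are transcription factors with a carboxy-terminal run of zinc fingers that bind GC-rich and CACCC sequences, and members compete for similar sites with opposite effects on transcription. In vascular smooth muscle they are known for their part in the switch between a contractile state, driven by serum response factor (SRF) and its coactivator myocardin, and a modulated state that migrates and divides. Klf4 represses contractile genes, Klf5 activates genes of the embryonic, dividing state, Klf6 responds to vascular injury, Klf10 is an early target of transforming growth factor beta (TGF-β), Klf9 is a target of the glucocorticoid receptor, and Klf2 is best known from endothelium under flow.

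In the fit of all libraries 1 of the 6 transcripts passed the test, at an adjusted p under 0.05: Klf10 rose 1.79-fold in Dox against Blank, where 21.7% of all tested genes were called, and the call was lost without Blank_4 or without Dox_3. Klf4 and Klf6 were higher in each Dox library than in each Blank library but were not called. The Dox and Blank libraries did not overlap, in either direction, for 36.1% of tested genes. Klf2, Klf5 and Klf9 were called in no comparison of that fit, and no isoliensinine comparison called any of the 6. Levels are given as CPM (counts scaled to a common library size) after scaling by trimmed means of M-values (TMM), with the SD over n = 3 libraries. Members and related factors are ranked against each other only as FPKM, which accounts for gene length. CPM values of marker genes are not corrected for length.

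Totals ran from 12859609 to 23284077 counts per library and were at least 20140802 in Dox and at most 17955971 elsewhere. A pair of libraries, Blank_4 and B_I_3, stood apart from the rest on the first principal component of log CPM, at -69.71 and -61.32, where the 16 others ran from -36.23 to 40.1, and results that rest on them are given with and without them. Of 8 smooth muscle markers, Acta2 (mean 1936 CPM), Smtn (129 CPM), Lmod1 (17.2 CPM), Mylk (11.1 CPM), Myh11 (7.88 CPM) and Cnn1 (5.17 CPM) were present, while Tagln (0.362 CPM) and Myocd (0.191 CPM), which encodes myocardin, were at or near 0 in all 18 libraries. The summed level of 8 endothelial markers ran from 5.25 to 16.4 CPM over the 18 libraries, that of 8 macrophage markers from 10.9 to 51.1 CPM, that of 15 colon epithelium markers from 51.3 to 842 CPM, and that of 8 fibroblast markers, led by the collagen genes Col1a1 and Col1a2, from 4162 to 15301 CPM.

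Per unit of length Klf4 had the highest mean over the 18 libraries, at 5.79 FPKM (range 1 to 8.88), followed by Klf10 at 4.03 FPKM (1.71 to 6.32) and Klf2 at 3.14 FPKM (1.91 to 4.33). Klf6 followed at 2.49 FPKM (0.449 to 4.57), Klf9 at 1.98 FPKM (0.990 to 2.71) and Klf5 at 0.870 FPKM (0.246 to 2.33). Klf4 and Klf10 thus lay above, and Klf5 well below, the median of 3.16 FPKM over the tested genes. The order holds for means only, since the ranges of neighbours in it overlap. Raw counts per library ran from 20 for Klf5 in H2O2_2 to 544 for Klf10 in Dox_3.

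In GRCm38, by gene identifier in the GENCODE M21 annotation, Klf2 lies at chr8:72319033-72321656 (plus strand), Klf4 at chr4:55527143-55532466 (minus), Klf5 at chr14:99298691-99315036 (plus), Klf6 at chr13:5861482-5870394 (plus), Klf9 at chr19:23141226-23168134 (plus) and Klf10 at chr15:38291463-38300706 (minus). The labels name no build for the deposited table; its own coordinates equal these for 1 of the 6 genes. Values are read counts over each gene as a whole, so they do not separate exons, UTRs or isoforms.

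Promoter sequence from RefSeq was matched by symbol for 4 of the 6 genes, Klf2, Klf4, Klf6 and Klf9. It is shown for every member that had an entry, and Klf5 and Klf10 had none. Each line runs 5′ to 3′ from base -150 to base -31, counted back from the RefSeq start on GRCm38.p6 and given on the strand of the gene, and capitals mark motif matches on either strand.
Klf2 (chr8:72318912-72319031, plus): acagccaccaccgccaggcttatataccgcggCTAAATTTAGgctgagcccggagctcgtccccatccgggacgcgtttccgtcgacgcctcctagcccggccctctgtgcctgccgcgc
Klf4 (chr4:55532506-55532625, minus): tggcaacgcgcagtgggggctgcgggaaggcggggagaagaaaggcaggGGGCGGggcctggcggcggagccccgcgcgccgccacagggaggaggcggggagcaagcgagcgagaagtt
Klf6 (chr13:5861339-5861458, plus): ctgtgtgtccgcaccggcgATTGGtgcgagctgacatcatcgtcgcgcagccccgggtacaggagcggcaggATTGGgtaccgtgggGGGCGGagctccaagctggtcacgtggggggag
Klf9 (chr19:23141076-23141195, plus): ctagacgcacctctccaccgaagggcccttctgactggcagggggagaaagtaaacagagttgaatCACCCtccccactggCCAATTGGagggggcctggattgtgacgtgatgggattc

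Over the 250 bases before the start, 7 motifs were searched on both strands: the KLF core box CACCC, the GC box GGGCGG, the TATA box with letters TATAAA, the box named CCAAT, the cyclic AMP element with letters TGACGTCA, the CArG box bound by SRF and the MEF2 site. Klf2 held a MEF2 site at -118 to -109, a motif that 0.508% of the 32851 promoters in the table hold. MEF2 factors are known to act on Klf2 downstream of the kinase ERK5 in endothelium. A GC box, held by 32.7% of promoters, was present in Klf2 at -214 and -195, in Klf4 at -212, -189 and -101 and in Klf6 at -63. CCAAT, held by 33.8%, was present in Klf6 at -230, -200, -131 and -78 and in Klf9 at -170, -69 and -66, the last pair overlapping. CACCC, held by 52%, was present in Klf9 at -84 and in Klf2 at -19. The TATA box, the cyclic AMP element and the CArG box, held by 12.4%, 1.55% and 1.47% of promoters, had no match in these 4 windows. The GC content of the 250 bases was 71.2% for Klf2, 74% for Klf4, 64.8% for Klf6 and 59.6% for Klf9, against a median of 52.4% over all promoters. A match describes the letters and shows no binding.

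Klf4, the repressor of contractile genes, stood at 15.4, 13 and 5.11 CPM in Blank_1, Blank_2 and Blank_4. It stood at 20.6, 12.8 and 19.7 CPM in H2O2_1 to H2O2_3 and at 20.6, 19.7 and 19.9 CPM in Dox_1 to Dox_3. All 3 Dox libraries lay above all 3 Blank libraries and close to each other (20.1 ± 0.498 CPM, against 11.2 ± 5.38 CPM in Blank), while H2O2 (17.7 ± 4.25 CPM) overlapped Blank. Dox and Blank did not overlap for 36.1% of tested genes, in either direction. In the isoliensinine arms Klf4 was at 15.2, 17.3 and 3.53 CPM in B_I, at 25.7, 25.7 and 20.4 CPM in H_I and at 21.8, 19.8 and 15.5 CPM in D_I. The mean was highest in H_I (23.9 ± 3.01 CPM), then Dox, D_I (19.0 ± 3.21 CPM), H2O2, B_I (12 ± 7.43 CPM) and Blank, and neighbours in this order overlapped at each step.

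Klf10, which encodes a TGF-β-inducible repressor and acts on the inhibitory SMAD gene Smad7, stood at 14.2, 13.6 and 8.64 CPM in Blank_1, Blank_2 and Blank_4. It stood at 20.4, 20.4 and 24.6 CPM in Dox_1 to Dox_3 and at 16.5, 14.5 and 11.7 CPM in H2O2_1 to H2O2_3. The Dox libraries lay above every Blank and every H2O2 library, and those of H2O2 overlapped Blank. Over all tested genes, 36.1% had no overlap between Dox and Blank and 32.6% none between Dox and H2O2. In the isoliensinine arms Klf10 stood at 17.8, 12.5 and 8.21 CPM in B_I, at 19.6, 14.6 and 16.1 CPM in H_I and at 25.0, 18.6 and 21.2 CPM in D_I. Klf10 thus had its highest means in Dox (21.8 ± 2.44 CPM) and D_I (21.6 ± 3.21 CPM), followed by H_I (16.7 ± 2.54 CPM), H2O2 (14.2 ± 2.40 CPM), B_I (12.8 ± 4.81 CPM) and Blank (12.1 ± 3.04 CPM), and each neighbouring pair overlapped.

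Klf6, an injury-response factor reported to act on the TGF-β receptor gene Tgfbr1, on endoglin and on Plau, the urokinase gene, stood at 11.5, 9.18 and 2.33 CPM in Blank_1, Blank_2 and Blank_4. It stood at 7.54, 10.7 and 10 CPM in H2O2_1 to H2O2_3 and at 13.1, 11.7 and 15.4 CPM in Dox_1 to Dox_3. Blank_4 was the lowest of the 18 libraries. The lowest Dox library (11.7 CPM) was just above the highest Blank library (11.5 CPM), a lack of overlap found for 36.1% of tested genes. In the isoliensinine arms Klf6 stood at 15.2, 4.78 and 3.66 CPM in B_I, at 19.0, 11.5 and 15.8 CPM in H_I and at 11.3, 12.3 and 8.07 CPM in D_I. The 3 H_I libraries lay above the 3 H2O2 libraries, and for 12.1% of tested genes the libraries of these groups did not overlap, in either direction. Group means ran from H_I (15.5 ± 3.76 CPM) through Dox (13.4 ± 1.84 CPM), D_I (10.6 ± 2.23 CPM), H2O2 (9.43 ± 1.67 CPM) and B_I (7.89 ± 6.39 CPM) to Blank (7.66 ± 4.75 CPM), with each neighbouring pair overlapping.

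Klf5, the activator of embryonic smooth muscle genes such as Myh10, was the scarcest of the 6. It stood at 2.86, 1.79 and 2.78 CPM in Blank_1, Blank_2 and Blank_4, at 5.08, 1.24 and 6.06 CPM in H2O2_1 to H2O2_3 and at 7.28, 2.28 and 3.67 CPM in Dox_1 to Dox_3. The spread within H2O2 and within Dox was as wide as the gap to Blank, and both groups overlapped it. In the isoliensinine arms it stood at 4.77, 1.81 and 2.05 CPM in B_I, at 11.5, 4.63 and 5.67 CPM in H_I and at 6.29, 4.35 and 5.91 CPM in D_I. H_I_1 held the highest value of the 18 libraries, and the next was 7.28 CPM. Means ran from H_I (7.27 ± 3.71 CPM) through D_I (5.51 ± 1.03 CPM), Dox (4.41 ± 2.58 CPM), H2O2 (4.12 ± 2.55 CPM) and B_I (2.88 ± 1.65 CPM) to Blank (2.48 ± 0.599 CPM), and neighbours overlapped throughout.

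Klf9, the glucocorticoid-responsive member, stood at 10.3, 10.6 and 5.64 CPM in Blank_1, Blank_2 and Blank_4, at 10.9, 9.05 and 11.2 CPM in H2O2_1 to H2O2_3 and at 9.39, 6.79 and 6.92 CPM in Dox_1 to Dox_3. It was the one member whose mean was lowest in Dox (7.70 ± 1.46 CPM), below Blank (8.86 ± 2.79 CPM), although the libraries overlapped. In the isoliensinine arms it stood at 11.3, 8 and 6.42 CPM in B_I, at 11.8, 9.31 and 10.9 CPM in H_I and at 11.5, 8.04 and 12.6 CPM in D_I. D_I (10.7 ± 2.37 CPM), H_I (10.7 ± 1.26 CPM) and H2O2 (10.4 ± 1.16 CPM) had nearly the same mean, B_I (8.59 ± 2.52 CPM) lay between Blank and Dox, and each neighbouring pair overlapped.

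Klf2, the flow-responsive factor of endothelium, had group means close together. It stood at 4.92, 5.92 and 4.36 CPM in Blank_1, Blank_2 and Blank_4, at 6.2, 6.57 and 5.75 CPM in H2O2_1 to H2O2_3 and at 5.38, 7.81 and 5.88 CPM in Dox_1 to Dox_3. In the isoliensinine arms it stood at 4.83, 3.74 and 7.12 CPM in B_I, at 5.31, 4.50 and 5.94 CPM in H_I and at 5.91, 6.55 and 7.27 CPM in D_I. Group means lay between 5.06 ± 0.789 CPM in Blank and 6.58 ± 0.679 CPM in D_I, with Dox (6.36 ± 1.28 CPM), H2O2 (6.17 ± 0.413 CPM), H_I (5.25 ± 0.720 CPM) and B_I (5.23 ± 1.73 CPM) between them, and all neighbours overlapped.

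**Figure D1:**
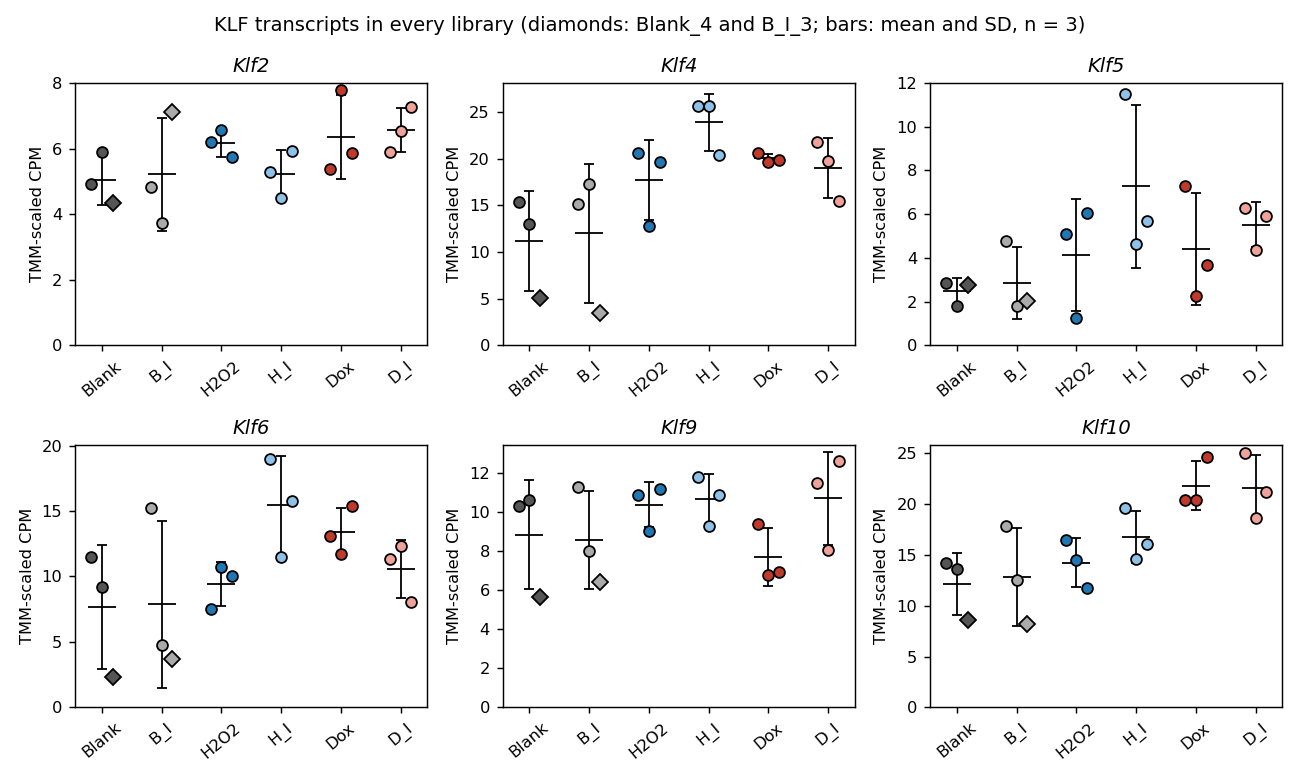
TMM-scaled CPM (vertical axes, each from 0) of the 6 KLF transcripts in every library, by group, with bars for mean and SD over 3 libraries and diamonds for Blank_4 and B_I_3. The Dox libraries of Klf10 lie between 20.4 and 24.6 CPM, above all Blank libraries (at most 14.2 CPM), and both diamonds are at the bottom of their groups for Klf4, Klf6, Klf9 and Klf10.

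Doxorubicin was compared with no treatment to ask what it changed. Klf10 rose (log2 fold change 0.84, SE 0.240, 95% interval 0.34 to 1.34; edgeR adjusted p = 0.0144, from its quasi-likelihood test over all tested genes). That is 1 of 6 members, where 21.7% of the tested genes were called. Klf4 had the same fold of 1.79 with a wider interval (0.01 to 1.67) and an edgeR adjusted p of 0.148. Klf5 (log2 0.84, interval -0.25 to 1.92) and Klf6 (log2 0.80, interval -0.16 to 1.75) were not called either, at edgeR adjusted p of 0.289 and 0.242, nor were Klf2 (log2 0.32, interval -0.22 to 0.87) and Klf9 (log2 -0.20, interval -0.75 to 0.34), at edgeR adjusted p of 0.438 and 0.651. The libraries of 3 members, Klf4, Klf6 and Klf10, did not overlap between the groups, which was also so for 36.1% of tested genes. The median log2 fold change was 0.82 over the 6 members and 0.08 over all tested genes. Without Blank_4 the members' log2 fold changes were 0.20 (Klf2), 0.47 (Klf4), 0.90 (Klf5), 0.35 (Klf6), -0.47 (Klf9) and 0.62 (Klf10). In cultures sequenced as bulk RNA, a change in the share of cells holding a transcript and a change per cell cannot be told apart. Among genes listed as markers of other cell types, 5 of 7 listed for fibroblasts were lower in Dox. Their summed level, led by the collagen genes Col1a1 and Col1a2, was 4162 to 4496 CPM against 12128 to 15301 CPM in Blank. Of 7 tested macrophage markers 1 was higher, and the summed level of the 8 listed was 27.1 to 45.6 CPM against 11.8 to 36.1 CPM. In turn 0 of 15 colon markers (summed level 103 to 282 CPM against 67.2 to 211 CPM) and 0 of 8 endothelial markers (summed level 5.25 to 12.1 CPM against 6.16 to 16.4 CPM) were called. Whether cells of another type were present, and the part of these transcripts in the KLF values, was not tested.

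The rise of Klf10 rested on single libraries for its call, not for its direction. Without Blank_4 the log2 fold change was 0.62 (edgeR adjusted p = 0.0874), and without Dox_3 it was 0.75 (edgeR adjusted p = 0.0693). With both Blank_4 and B_I_3 left out it was also 0.62, with an edgeR adjusted p of 0.0286. Over 13 alternatives its log2 fold change ran from 0.62 to 0.97 and the adjusted p, from edgeR or DESeq2, from 0.00752 to 0.0874. For Klf4 and Klf6, neither of them called, the log2 fold changes were 0.47 and 0.35 without Blank_4 and 1.14 and 1.21 without Blank_1. That of Klf5, also not called, was 0.27 without Dox_1 and 1.15 without Dox_2.

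Hydrogen peroxide was set against no treatment in the same way, and 0 of the 6 members were called, where 1.43% of tested genes were. All 6 estimates were above 0, with a median log2 fold change of 0.29 against -0.02 over all tested genes, and all 6 intervals included 0. Klf5 (log2 0.73, interval -0.38 to 1.83; edgeR adjusted p = 0.602) and Klf4 (log2 0.66, interval -0.18 to 1.49; edgeR adjusted p = 0.512) had the highest estimates. Klf6 (log2 0.29, interval -0.68 to 1.26), Klf2 (0.28, -0.27 to 0.84), Klf10 (0.23, -0.28 to 0.73) and Klf9 (0.22, -0.33 to 0.78) were closer to 0. At an unadjusted p under 0.05 the member count was 0 too, and DESeq2 called 0. The estimate for Klf4 was 0.32 without Blank_4 and 0.95 without Blank_1. That for Klf5 was 0.34 without H2O2_3 and 1.17 without H2O2_2, and that for Klf6 was -0.12 without Blank_4 and 0.70 without Blank_1. Without Blank_4 the estimates for Klf2, Klf5, Klf9 and Klf10 were 0.20, 0.82, -0.00 and 0.05. This comparison and that of Dox share the Blank libraries.

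Dox and H2O2 were also compared directly, with 0 of 6 members called and 13.1% of tested genes. Klf10 had the highest estimate (log2 0.61, SE 0.239, interval 0.12 to 1.11; edgeR adjusted p = 0.0966), so a difference between the agents was not called, although it had an unadjusted p of 0.0180. Klf6 (log2 0.51, interval -0.44 to 1.46) and Klf9 (log2 -0.43, interval -0.98 to 0.12) were not called, at edgeR adjusted p of 0.528 and 0.323. Klf4 (0.18, interval -0.64 to 1), Klf5 (0.11, -0.95 to 1.17) and Klf2 (0.04, -0.51 to 0.59) were near 0. The libraries of Klf6 and Klf10 did not overlap between Dox and H2O2, which was so for 32.6% of tested genes. Of the 6 members, 1 had an unadjusted p under 0.05, and DESeq2 called 0.

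With isoliensinine, edgeR called 0 of 6 members in each of the 3 settings, and 0 of all tested genes (0%). All 18 intervals of the members included 0. In B_I against Blank the 6 log2 fold changes ran from -0.05 for Klf9 (interval -0.60 to 0.51) to 0.22 for Klf5 (interval -0.89 to 1.33). In D_I against Dox they ran from -0.34 for Klf6 (interval -1.28 to 0.60) to 0.47 for Klf9 (interval -0.07 to 1.02), with Klf10 at -0.02 (interval -0.50 to 0.47). Klf5, at 0.32 there, was 0.88 without Dox_1 and 0.00 without Dox_2. The D_I and Dox libraries of Klf9 overlapped. In H_I against H2O2, Klf5 (log2 0.82, interval -0.24 to 1.89), Klf6 (0.71, -0.24 to 1.66) and Klf4 (0.44, -0.39 to 1.26) had the highest estimates and Klf2 the lowest (-0.24, -0.79 to 0.32). The lowest edgeR adjusted p over these 18 member tests was 0.815. Unadjusted p-values under 0.05 numbered 0 of 6 members in each setting, and 640, 556 and 915 of all tested genes in B_I, D_I and H_I, while DESeq2 called 1, 20 and 70 genes. DESeq2 called 0 members in B_I and H_I and gave the members no adjusted p in D_I. In tests of whether the isoliensinine effect differed between D_I and B_I or between H_I and B_I, edgeR and DESeq2 called 0 of 6 members, against 0% of tested genes by edgeR.

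**Figure D2:**
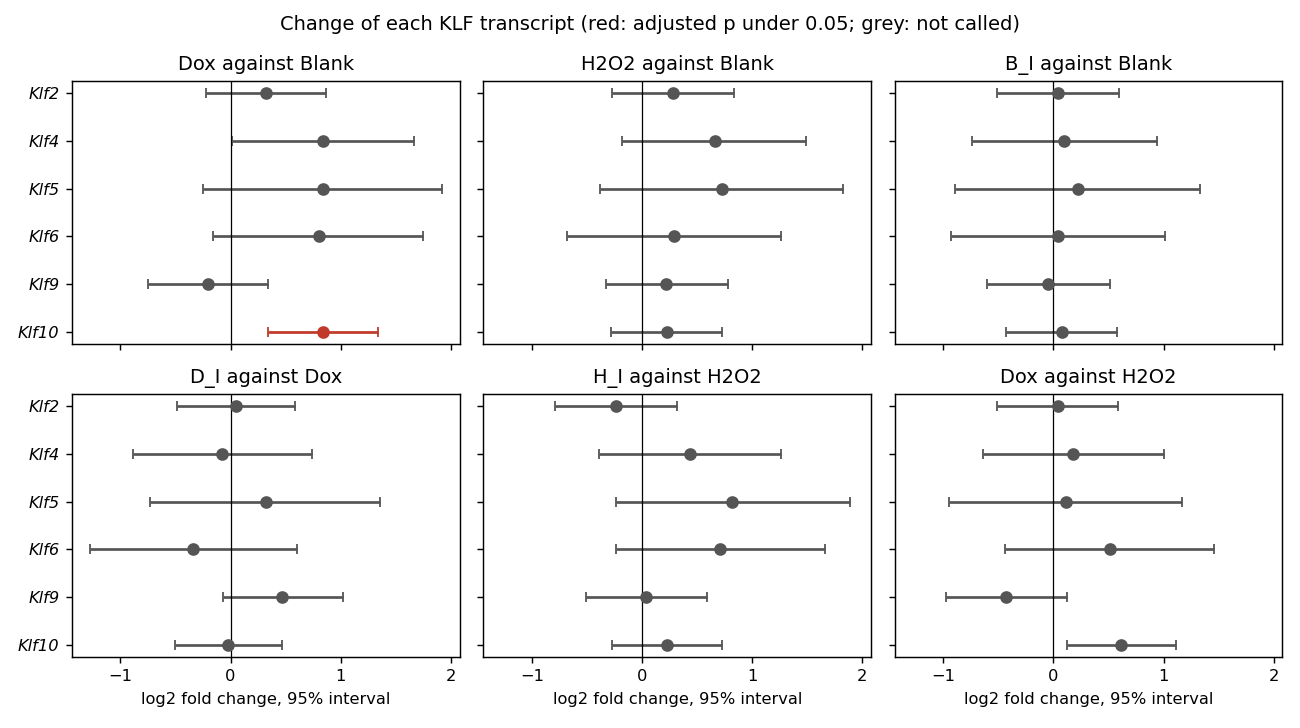
Log2 fold change (horizontal axis) of the 6 KLF transcripts in 6 comparisons, with 95% intervals from edgeR's quasi-likelihood fit, red where called. Klf10 in Dox against Blank (0.84) is the one red point, and Klf10 in Dox against H2O2 (0.61) has an interval above 0 without being called.

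Klf4, Klf6, Klf9 and Klf10 each had their lowest values of the 18 libraries in Blank_4 and B_I_3. Klf4 was 5.11 and 3.53 CPM there against 12.8 to 25.7 CPM in the 16 others, and Klf6 was 2.33 and 3.66 CPM against 4.78 to 19.0 CPM. Klf9 was 5.64 and 6.42 CPM against 6.79 to 12.6 CPM, and Klf10 8.64 and 8.21 CPM against 11.7 to 25.0 CPM. Klf2 was low in Blank_4 (4.36 CPM, above 1 of the 16 others) but not in B_I_3 (7.12 CPM, above 14 of them), and Klf5, at 2.78 and 2.05 CPM, lay within the range of the rest. The same pair held the highest Acta2, the smooth muscle actin transcript, with 4514 and 3875 CPM against 806 to 3003 CPM. The summed contractile transcripts ran from 1909 to 6211 CPM within Blank and from 2240 to 5383 CPM within B_I, wider than in Dox (3131 to 3536 CPM). Outside the pair, Klf4 and Acta2 did not run in opposite order by group: D_I had low Acta2 (853, 891 and 1047 CPM) and H_I higher Acta2 (2439, 2300 and 1863 CPM), with Klf4 at 15.5 to 21.8 CPM and 20.4 to 25.7 CPM. What sets the pair apart was not tested.

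**Figure D3:**
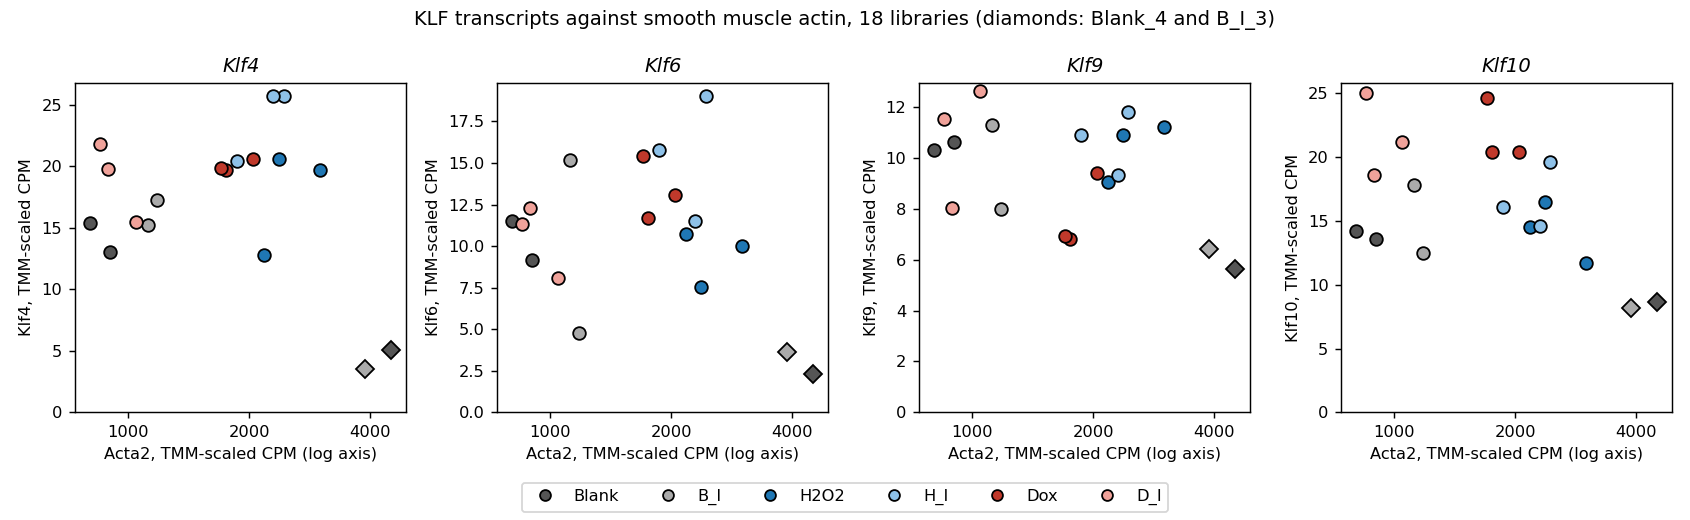
TMM-scaled CPM of Klf4, Klf6, Klf9 and Klf10 (vertical axes) against Acta2 (log axis) in 18 libraries, by group. The 2 diamonds, Blank_4 and B_I_3, sit alone at the lower right of each panel, with Acta2 at 4514 and 3875 CPM.

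Correlations between members over the 18 libraries, given as a description of log2 CPM, were highest for Klf4 with Klf6 (0.79), Klf6 with Klf10 (0.76) and Klf4 with Klf10 (0.75). Without Blank_4 and B_I_3 these were 0.34, 0.45 and 0.32. The pair Klf4 and Klf5 went from 0.53 to 0.70 over the 16 libraries left. Klf2 ran from -0.07 with Klf4 to 0.28 with Klf10 over 18 libraries, and from -0.13 to 0.44 with the same genes over 16. All such values share the group means, the scaling and the libraries.

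Klf5 moved with transcripts of colon epithelium, a tissue in whose crypts Klf5 is known to be abundant. The 15 colon markers, among them the mucin gene Muc2, summed to 842 CPM in H_I_1, where Klf5 was 11.5 CPM, and to 250 and 323 CPM in H_I_2 and H_I_3, where it was 4.63 and 5.67 CPM. In H2O2_2, with the lowest marker sum (51.3 CPM), Klf5 had its lowest value (1.24 CPM). In H2O2_1, however, the sum was 62.5 CPM and Klf5 5.08 CPM, and in H2O2_3 they were 196 CPM and 6.06 CPM. On a log2 scale Pearson's r between Klf5 and the marker sum was 0.75 over 18 libraries and 0.66 without H_I_1. It was not computed for the other members, so the link is not shown to be particular to Klf5. Klf6 also had its highest value in H_I_1 (19.0 CPM), and Klf4 stood at 25.7 CPM there and in H_I_2. Within B_I, Klf6 was at 15.2, 4.78 and 3.66 CPM where the marker sums were 301, 111 and 71.7 CPM. Klf6 followed the order of the sum within Blank and H_I as well, but not within H2O2, Dox or D_I. Klf2, Klf9 and Klf10 were not at their highest in H_I_1. Without H_I_1 the log2 fold change of Klf5 in H_I against H2O2 was 0.34, and with both H2O2_3 and H_I_1 left out it was 0.70. The part of these transcripts in the Klf5 values was not tested.

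**Figure D4:**
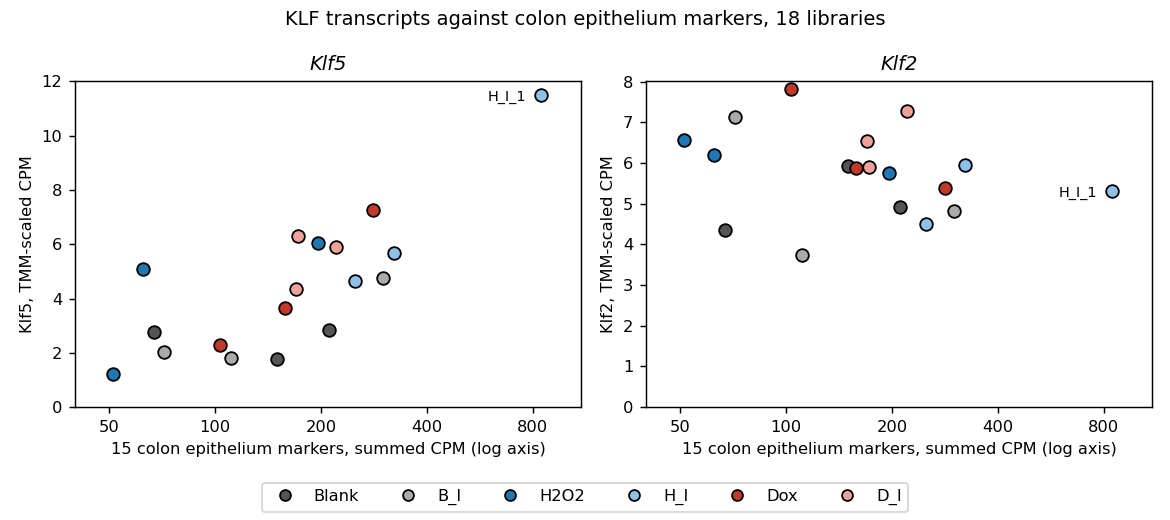
TMM-scaled CPM of Klf5 (left) and Klf2 (right) against the summed CPM of 15 colon epithelium markers (log axis) in 18 libraries, by group. H_I_1 is at the upper right for Klf5 (842 and 11.5 CPM), while Klf2 shows no such rise (5.31 CPM in H_I_1). Other members are not drawn.

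The 3 genes whose log2 CPM over the 18 libraries was most like each member were taken from tested genes with a mean of at least 5 FPKM. For Klf10 they were Ccng1, a p53 target that encodes cyclin G1 (Pearson's r 0.94), Emp1 (0.93), which encodes an epithelial membrane protein, and Rrn3 (0.92), a factor of RNA polymerase I, and without Blank_4 and B_I_3 the values were 0.88, 0.85 and 0.87. For Klf5 they were Trf (0.80), the transferrin gene, and the keratin genes Krt19 (0.80) and Krt8 (0.75), with 0.79, 0.78 and 0.76 over 16 libraries. For Klf4 they were Serp1 (0.92), Ndfip1 (0.89) and Gla (0.89), which fell to 0.57, 0.28 and 0.41 without the pair. Klf6 was nearest to the proton pump gene Atp6v1c1 (0.91), Azin1 (0.88) and Crk (0.87), with 0.81, 0.64 and 0.62 over 16 libraries. Klf2 (Zcrb1 0.76, Phaf1 0.75 and Wdr70 0.74) had looser neighbours, which held without the pair (0.77, 0.79 and 0.71). Those of Klf9 (1810065E05Rik 0.71, Neu1 0.71 and Vegfa 0.70) went to 0.46, 0.42 and 0.38. The likeness of Klf4 and Klf9 to these genes therefore lay largely in Blank_4 and B_I_3, and that of Klf6 in part. That of Klf10, Klf5 and Klf2 changed less without this pair. The genes were picked by their values over all 18 libraries, so some fall is built in. The values over 16 libraries still share the group means.

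Among 20 other KLF and SP factors, relatives that bind the same GC-rich sites, 12 were tested and 0 were called in any comparison by edgeR. In Dox against Blank their median log2 fold change was -0.16, against 0.08 over all tested genes and 0.82 for the 6 members. These medians come from the fit that holds Blank_4 and were not recomputed without it. Without Blank_4 the members ran from -0.47 (Klf9) to 0.90 (Klf5), with Klf4 at 0.47, Klf6 at 0.35 and Klf2 at 0.20. Klf11, the closest relative of Klf10, had a log2 fold change of 0.63 (SE 0.287, edgeR adjusted p = 0.128). Klf16 (19.4 FPKM), Sp2 (5.45 FPKM) and Sp1 (4.63 FPKM) had the highest mean levels of the list, while Klf15, known to restrain vascular smooth muscle growth, was at 0.267 FPKM. Sp6 was at 0 in all 18 libraries. In Blank_4 and B_I_3, Sp1 (23 and 25.5 CPM against 51.1 and 46.6 CPM in Blank_1 and Blank_2), Sp3 (4.88 and 4.49 CPM against 13.5 and 12.8 CPM) and Klf3 (23.3 and 17.5 CPM against 32.1 and 28.0 CPM) were low as well, while Klf16 was high (63.0 and 65.7 CPM against 44.6 and 45.5 CPM). This sets B_I_3, given isoliensinine, against untreated libraries and not against its own group. Over the 18 libraries the lowest values were 23 CPM for Sp1, 4.49 CPM for Sp3 and 17.5 CPM for Klf3. The highest for Klf16 was 65.7 CPM.

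The inputs to these factors were described by list, and for each the count called in Dox against Blank is read beside the 21.7% of all tested genes. Of 13 genes for TGF-β ligands, receptors, SMADs and early targets, the input of Klf10, 0 rose and 1 fell, the ligand gene Tgfb1 (508 ± 37.9 to 298 ± 21.7 CPM, log2 -0.77). Smad7 was not called. Of 9 genes for the glucocorticoid receptor and its targets, the input of Klf9, 3 rose, the kinase gene Sgk1 (log2 0.90), Errfi1 (0.82), which encodes an inhibitor of the EGF receptor, and the phosphatase gene Dusp1 (1.38), and 1 fell, Tsc22d3 (-0.98), which encodes the glucocorticoid-induced leucine zipper. Without Blank_2 the call of Dusp1 was lost (log2 1.19, edgeR adjusted p = 0.05). Of 8 genes for ERK5 and MEF2, the input of Klf2, 0 rose and 1 fell, Map2k5 (log2 -0.47), the kinase that activates ERK5, a call lost without Dox_3 (-0.42, edgeR adjusted p = 0.0513). Of 5 genes for ubiquitin ligases known to act on KLF proteins, Smurf1 rose (log2 0.49) and Stub1 fell (-0.98). Of 17 immediate early genes 5 rose and 2 fell, with Btg2 (log2 1.61), Atf3 (1.19), Myc (0.74) and Jun (0.68) of smallest adjusted p, and Dusp1 stands in this list as well.

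The genes these factors are reported to act on, and those of the contractile and modulated states, are likewise read beside the 21.7% of tested genes called. Of 15 reported KLF targets 3 rose and 0 fell in Dox against Blank: Cdkn1a, the p21 gene and also a p53 target (99.4 ± 10 to 456 ± 64.0 CPM, log2 2.20), Ccnd1, the cyclin D1 gene (log2 2.04), and Plau (log2 2). The list's median was -0.03. Of 15 contractile genes 4 rose and 0 fell, Cnn1 (log2 1.42), Mylk (0.99), Cald1 (0.98) and Tpm1 (0.57), with a list median of 0.21. The call of Cnn1 was lost without Blank_1 (log2 1.05), Blank_2 (1.14), Dox_1 (1.17) or Dox_3 (1.52), and in a fit of the Blank and Dox libraries alone (1.40, edgeR adjusted p = 0.091), while without Blank_4 it was called at a log2 fold change of 2.39. Of 11 genes for SRF and its partners, 0 rose and 1 fell, Hdac5 (-0.65), a class IIa histone deacetylase, a call lost without Blank_4 (-0.46, edgeR adjusted p = 0.0518) or Dox_3 (-0.62, edgeR adjusted p = 0.0527). Of 9 markers of modulated smooth muscle 4 rose and 2 fell, with osteopontin (Spp1, log2 2.28), Cd68 (2.07), Ly6a (1.61) and fibronectin (Fn1, 0.86) higher, and a list median of 0.56. Cd68 is also a macrophage marker, and of 7 tested macrophage markers it was the 1 called.

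In H2O2 against Blank, where 1.43% of tested genes were called, the members' targets Cdkn1a (log2 1.16) and Ccnd1 (1.26) rose, as did Spp1 (1.28), Atf3 (1.51), Btg2 (0.64) and Tpm1 (0.51), and no gene of the lists for the members' relatives, SRF, ERK5 and MEF2, the glucocorticoid receptor, TGF-β or ubiquitin ligases was called. Of 7 tested fibroblast markers, 3 fell. Fitted on the Blank and H2O2 libraries alone, of these 6 genes Ccnd1 (1.29, edgeR adjusted p = 0.194), Spp1 (1.31, 0.194), Atf3 (1.54, 0.16), Btg2 (0.67, 0.507) and Tpm1 (0.54, 0.424) were no longer called. The call of Tpm1 was lost without Blank_1 (0.40), Blank_2 (0.47) or H2O2_3 (0.46), and that of Btg2 without Blank_1 (0.65), Blank_2 (0.59), H2O2_1 (0.54) or H2O2_2 (0.57). In Dox against H2O2, where 13.1% of tested genes were called, the KLF target list had 4 genes higher and 1 lower of 15, the higher ones including Cdkn1a (log2 1.04) and Myh10 (1.16), the target of Klf5. The glucocorticoid list had 3 of 9 higher, among them Fkbp5 (0.47), and Tsc22d3 (-0.75) lower, and the call of Fkbp5 was lost with both H2O2_3 and H_I_1 left out (0.35). Of the 15 contractile genes Mylk (0.96) was higher, and the modulated list had 3 of 9 higher, among them Fn1 (0.81) and Spp1 (log2 1), and 1 lower. Of the 17 immediate early genes Btg2 (0.97) was higher and 2 were lower, among them Junb (-0.50), whose call was lost without H2O2_3 (-0.36) or Dox_3 (-0.45). Tgfb1 (-0.47), Stub1 (-0.85) and Mef2b (-0.89) were the 1 called gene each of the TGF-β, ubiquitin ligase and ERK5 and MEF2 lists. The call of Tgfb1 was lost without H2O2_3 (-0.35) or Dox_3 (-0.41), and that of Mef2b without any 1 of H2O2_1 (-0.74), H2O2_2 (-0.79), Dox_1 (-0.95), Dox_2 (-0.90) and Dox_3 (-0.80). Of 7 tested fibroblast markers, 4 were lower. In B_I, D_I and H_I, edgeR called 0 of all tested genes, and hence 0 of these lists. The summed contractile transcripts were nevertheless 1971 to 2278 CPM in D_I against 3131 to 3536 CPM in Dox. Acta2 was 853, 891 and 1047 CPM against 2047, 1753 and 1707 CPM. The contractile list's median log2 fold change there was -0.33, against -0.00 over all tested genes. How many tested genes were as far apart in these groups was not computed.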

How the data were processed

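RNA from 18 libraries was captured by poly-T beads and copied from random primers, per the labels' protocols. Whether strand was kept is not given. fastp 0.22.0, HISAT2 2.1.0 and HTSeq 0.9.1 are named per the submitters' processing notes, without roles. The deposited table holds a read count per gene and library, per the file headers, and FPKM made by the authors, which equal count over gene length and column total (100% of values within 1e-06). Genes without a symbol (51, 0.0187% of counts) were kept under their identifier.

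Groups came from the sample titles. Counts were filtered by edgeR's expression filter (13375 genes), scaled by TMM and tested in R 4.3.3 with edgeR 4.0.16's quasi-likelihood test, a mean per group over 18 libraries, and called at Benjamini-Hochberg adjusted p under 0.05 over all tested genes. SE is the absolute log2 fold change over the root of F, and 95% intervals use it. The scripts were tested on simulated data. No pair of replicates agreed within sampling noise (chi-square per degree of freedom at least 5.69). Named genes were the 6 members, up to 4 called genes of smallest adjusted p per list in Dox against Blank and up to 2 elsewhere, and the 3 most alike genes per member; Klf11 and the other relatives named, Smad7 and Acta2 were added beside them. The members and lists were chosen with earlier results of these data known. Alternatives were DESeq2 1.42.0, other scalings, no filter, only the groups compared, a replicate block, and leaving out libraries. Protein sequences are not used here.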

Additional observations from a re-analysis of the deposited data

How the results depend on the processing

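Of 468 recomputed log2 fold changes of the 6 members, 428 kept their side of the threshold without a change of sign. Values that round to 0 were counted among these as unchanged, whatever their sign. Of the 428, 6, by DESeq2 in D_I, had no adjusted p, so only their direction counts. A further 2 (Klf10 in Dox against Blank) lost the call, 1 (Klf10 in Dox against H2O2) gained it and 37 changed sign after rounding, all uncalled. Leaving out single libraries, members called in Dox against Blank ranged from 0 to 1. Genes called ranged over 1876 to 2869 in Dox against Blank, 94 to 259 in H2O2 against Blank, 845 to 1741 in Dox against H2O2, 0 to 4 in B_I, 0 to 10 in H_I and 0 to 4 in the D_I against B_I effect. The largest drops came without Dox_3 (1876 and 845), Dox_1 (983), H2O2_3 (1080), Blank_1 (94) and H2O2_1 (109). Log2 fold changes ranged in B_I over -0.23 to 0.23 (Klf2), -0.25 to 0.55 (Klf4), -0.36 to 0.47 (Klf5), -0.87 to 0.45 (Klf6), -0.30 to 0.13 (Klf9) and -0.24 to 0.33 (Klf10). In D_I against Dox they ranged over -0.06 to 0.22 (Klf2), -0.19 to 0.05 (Klf4) and -0.14 to 0.08 (Klf10), in H_I over -0.05 to 0.13 (Klf9), in H2O2 against Blank over -0.12 to 0.70 (Klf6), and in Dox against H2O2 over -0.13 to 0.15 (Klf2) and -0.45 to 0.50 (Klf5). With both Blank_4 and B_I_3 left out, Klf6 was -0.12 in H2O2 against Blank and -0.04 in B_I, Klf2 -0.33 in B_I, and genes called 526 in H2O2 against Blank, 3 in B_I and 8 in the D_I against B_I effect. With both H2O2_3 and H_I_1 left out, Klf10 was -0.03 in H_I and Klf2 -0.06 in Dox against H2O2, where 1076 genes were called. DESeq2 and its size factors in edgeR each put Klf2 at -0.02 in Dox against H2O2. DESeq2 called 426 genes in H2O2 against Blank, 1 in B_I, 20 in D_I, 70 in H_I, and 3 and 2 in the D_I and H_I against B_I effects. Without a filter 1 gene was called in B_I, 2 in D_I and 1 in the D_I against B_I effect. Fitting only the groups compared gave 5 in H2O2 against Blank and 263 in D_I, with a spread from fewer libraries. Of genes called in Dox against H2O2 51.5% were higher, against 41.3% by DESeq2, 39.4% with its size factors in edgeR and 41.6% by upper-quartile scaling, and of those in H2O2 against Blank 44.5%, against 54.7% and 58% under the last pair. Where a call, count or sign changed, the cause was not tested. Klf5, with 20 to 180 counts per library, was the least precise member (SE 0.502 to 0.533).

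Whether replicate numbers shared between groups pair the libraries was not settled. Of 40 same-numbered pairs, 9 had deviations correlated over 0.1 (range -0.19 to 0.28), and 9 of 18 libraries correlated best with their own number. How many would do so without pairing was not computed. With a replicate block, Klf10 was called in Dox against H2O2 too (log2 0.64, edgeR adjusted p = 0.0322; 1 member called), Klf10 was 0.73 in Dox against Blank (edgeR adjusted p = 0.0331), the call of Map2k5 was lost there (-0.36, edgeR adjusted p = 0.066), 2428 genes were called, and 4 in D_I, 2 in H_I and 3 in the D_I against B_I effect. With the replicate block, signs changed for Klf6 (-0.01) and Klf9 (-0.02) in H2O2 against Blank and for Klf2 (-0.12), Klf4 (-0.17), Klf6 (-0.40) and Klf10 (-0.08) in B_I.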
